A study of Homo sapiens with 9 samples.

Results

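The myeloid C-type lectin receptors described here are 10 genes chosen by symbol: CLEC2B, CLEC4A, CLEC4D, CLEC4E, CLEC5A, CLEC6A, CLEC7A, CLEC10A, CLEC12A and CLEC12B. All 10 were found among the 25679 gene symbols of the deposited count table, and the row with the highest total stood for each. The 9 libraries hold messenger RNA of MOLM13, a human line of acute myeloid leukemia with a KMT2A fusion, in 3 groups of 3. The groups were cells with virus for YTHDC1 shRNA-2, cells with virus for YTHDC1 shRNA-1, and cells with virus for a control shRNA. YTHDC1 encodes a nuclear protein that binds N6-methyladenosine (m6A), a mark on RNA. All cells had been spun with virus and polybrene, cultured for 48 h and selected with puromycin for 48 h, so the control libraries share the infection and the drug. The labels number the libraries of a group without saying that they are separate cultures, and the p-values measure only the spread between these libraries. The series compared the knockdown groups with control to find genes whose expression differed.

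C-type lectin receptors are membrane proteins of myeloid cells whose outer domain binds sugars, lipids or proteins of microbes, dying cells or other leukocytes. Some start signals through the kinase SYK and the adapter CARD9, either with a tyrosine motif of their own, as CLEC7A does, or through the partner chains FCER1G and TYROBP. Others, such as CLEC12A, CLEC12B and CLEC4A, carry an inhibitory tyrosine motif that recruits phosphatases. Monocytes, macrophages, dendritic cells and neutrophils carry many of them, and CLEC12A is also a surface marker of acute myeloid leukemia cells.

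The libraries held 26455628 to 67558535 counts over genes. YTHDC1 stood at 0, 61.3 and 52.4 CPM (counts scaled to library size in the usual unit, with edgeR's TMM factors) in shRNA 2 replicates 1 to 3, at 117, 103 and 134 CPM with shRNA 1, and at 134, 139 and 122 CPM in control. The libraries labelled shRNA 1 overlapped control, and YTHDC1 did not pass there (-0.16 on the log2 scale, standard error 1.36, edgeR adjusted p = 0.938). So wide an error could not exclude a fall. Without shRNA 2 replicate 1 the shRNA 1 value was -0.18 (standard error 0.13, edgeR adjusted p = 0.271). With shRNA 2, YTHDC1 did not pass over all libraries (log2 fold change -1.79, edgeR adjusted p = 0.326), and passed without replicate 1 (-1.23, adjusted p = 2.2e-05). The shallowest library, shRNA 2 replicate 1, stood apart: across genes its log2 levels correlated at 0.94 with each other library of its group, which correlated with each other at 0.997. YTHDC1 was 1 of 69 genes that had 0 counts there and at least 10 CPM in each of the other 8 libraries, while no other library had any such gene. Whether a 0 there, as for CLEC4D and CLEC5A, is a low level cannot be told. Calls of the members and of named genes that changed without it are given beside them. All 8 markers of the labelled leukemia type were present in every library, but their levels differed between groups. FLT3, a receptor of leukemic progenitors, fell (-1.17 with shRNA 2, -0.42 with shRNA 1), and ITGAM (2.88 and 1.76) and CSF1R (1.99 and 2.23), of mature myeloid cells, rose. MPO, a granule enzyme, was lower with shRNA 2 (-1.27) and higher with shRNA 1 (1.56). Their part in the results was not tested.

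Of the 10 receptor genes, 7 had enough counts to be tested, and CLEC4D, CLEC4E and CLEC6A did not. With shRNA 2, 6 of the 10 rose against control and 0 fell, where 27.5% of the 16746 genes tested rose and 27.4% fell. With shRNA 1, 4 of the 10 rose and 0 fell, where 20.4% of all tested genes rose and 19.0% fell. Every called rise was over 2-fold, a size that 14.8% of all genes reached with shRNA 2 and 7.90% with shRNA 1. Both comparisons use the same control libraries. Between the knockdown groups, 5 of the 10 were higher with shRNA 2 than with shRNA 1, against 15.5% of all genes, and 0 were lower, against 16.5%; 4 of the 5 were over 2-fold higher, against 7.03% of all genes. Counting all 10 genes without a test, every shRNA 2 library lay above every control library for 8 (34.0% of the tested genes), every shRNA 1 library above control for 6 (25.7%), and every shRNA 2 library above shRNA 1 for 8 (21.5%). Among the 7 tested members alone, to which those shares compare, the numbers were 6, 5 and 6 in the same order. A gene that passed the count filter only through the group in which it was high was bound to differ, so these counts are a description. In bulk RNA, more cells of one kind and more RNA per cell cannot be told apart.

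**Figure D1:**
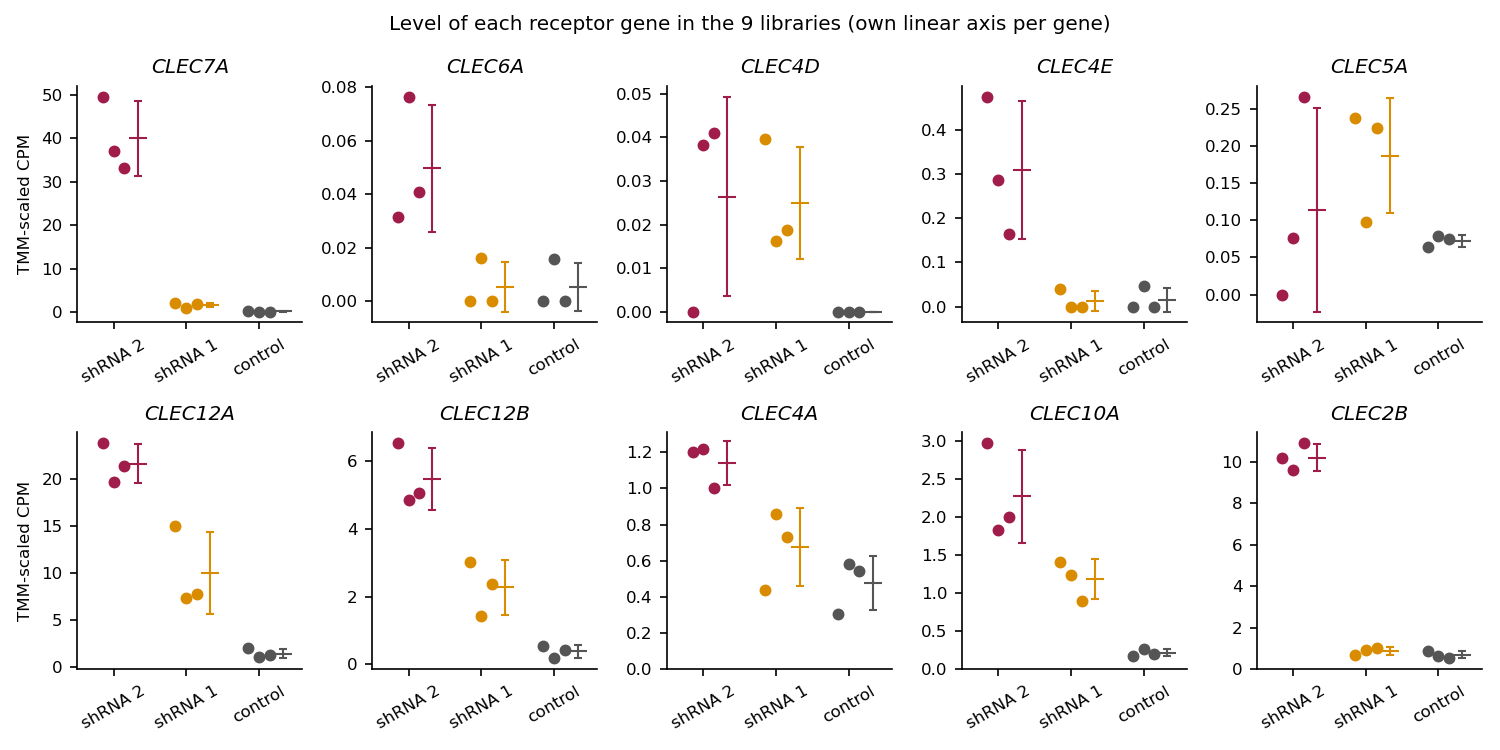
TMM-scaled CPM of each receptor gene (vertical axes, linear, 1 scale per gene) in the 3 libraries of YTHDC1 shRNA 2, YTHDC1 shRNA 1 and control shRNA; dots are libraries, and bars beside them are the mean ± SD (n = 3). CLEC7A and CLEC2B stood apart with shRNA 2 (33.2 to 49.6 and 9.61 to 10.9 CPM). CLEC7A, CLEC12A, CLEC12B and CLEC10A were above control with both shRNAs.

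CLEC7A (Dectin-1), the receptor of fungal beta-glucan, had the largest change among the 7 tested members with shRNA 2 and separated all 3 groups. It held 49.6, 37.2 and 33.2 CPM with shRNA 2 (mean 40.0 ± 8.56, SD, n = 3). With shRNA 1 it held 2.04, 1.08 and 1.80 CPM (1.64 ± 0.499), and in control 0.351, 0.158 and 0.165 CPM (0.224 ± 0.109). No library of one group overlapped another group. CLEC7A rose 177-fold with shRNA 2, a log2 fold change of 7.47 with an SE of 0.37 (edgeR adjusted p = 1.34e-07). It rose 7.24-fold with shRNA 1 (2.86 ± 0.35, edgeR adjusted p = 0.000166). The difference between the shRNAs was itself called, with a 24.5-fold higher level under shRNA 2 (4.61 ± 0.30, edgeR adjusted p = 4.98e-06). Without shRNA 2 replicate 1 the rise with shRNA 2 was 7.27 on the log2 scale.

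The table holds 7 transcript rows of CLEC7A, which share most of their reads. The row used had 1571, 1948 and 1627 counts with shRNA 2, 103, 67 and 96 with shRNA 1, and 22, 10 and 11 in control. The row with the lowest total had 414, 477 and 405 counts with shRNA 2, 46, 18 and 31 with shRNA 1, and 9, 2 and 2 in control. Both rows thus ran in the same order of groups. With 2 to 9 counts of the lowest row in control, its share of the reads could not be compared with control. Its counts were 26.4, 24.5 and 24.9% of those of the row used with shRNA 2. With shRNA 1 they were 44.7, 26.9 and 32.3%. Whether that share differed between the shRNAs was not tested.

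The other receptors of microbial glycolipids and mannans lay near the limit of detection. CLEC4E (Mincle), which binds the mycobacterial cord factor and signals through FCER1G, had 15, 15 and 8 counts with shRNA 2, 2, 0 and 0 with shRNA 1, and 0, 3 and 0 in control. All 3 libraries of shRNA 2 were above every other library. The ratio of the summed, scaled counts was 18.4 for shRNA 2 against control (95% counting interval 5.83 to 93) and 0.776 for shRNA 1 against control (0.0648 to 6.77). CLEC4E missed the count filter; with no filter it passed for shRNA 2 (4.02, edgeR adjusted p = 0.00244) and did not for shRNA 1 (-0.33, adjusted p = 0.921). These fitted values rest on few counts: over the 11 settings that tested the gene, they ran from 3.51 to 7 with shRNA 2 and from -2.97 to 2.63 with shRNA 1, the highest of each without control replicate 2. Leaving out a library let CLEC4E pass the filter through the group in which it was high, so those calls are a description.

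CLEC4D, a partner of Mincle in lipid recognition, had 0, 2 and 2 counts with shRNA 2, 2, 1 and 1 with shRNA 1, and 0 in every control library. CLEC6A (Dectin-2), which binds mannans and also uses FCER1G, had 1, 4 and 2 counts with shRNA 2, 0, 1 and 0 with shRNA 1, and 0, 1 and 0 in control. A count of 0 in control allowed up to 0.0447 to 0.0457 CPM before TMM scaling. At these depths no difference of CLEC4D or CLEC6A could be shown (with no filter, edgeR adjusted p = 0.0949 and 0.119 for shRNA 2 against control).

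CLEC5A (MDL-1), a receptor on chromosome 7 that signals through TYROBP and is known for binding dengue virus, was barely detected and passed no test. It held 0, 0.0764 and 0.266 CPM with shRNA 2, 0.238, 0.0971 and 0.224 CPM with shRNA 1, and 0.0637, 0.0788 and 0.0751 CPM in control. All shRNA 1 libraries lay above control, and the shRNA 2 libraries lay on both sides of it. The log2 fold change was 0.76 ± 0.79 with shRNA 2 (edgeR adjusted p = 0.442) and 1.31 ± 0.72 with shRNA 1 (adjusted p = 0.175). The shRNA 2 value turned to -0.62 without replicate 3 of that group.

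Of the receptors with an inhibitory motif, CLEC12A and CLEC12B rose with both shRNAs, and CLEC4A with shRNA 2. CLEC12A (MICL), which senses uric acid crystals of dead cells, held 23.8, 19.7 and 21.4 CPM with shRNA 2 (21.6 ± 2.08, SD, n = 3). It held 15, 7.28 and 7.76 CPM with shRNA 1 (10.0 ± 4.34) and 1.98, 1.04 and 1.19 CPM in control (1.40 ± 0.503). The 3 groups did not overlap. The rise was 15.4-fold with shRNA 2 (3.95 ± 0.34, edgeR adjusted p = 8.87e-06) and 7.15-fold with shRNA 1 (2.84 ± 0.33, adjusted p = 0.000148). The level with shRNA 2 was 2.16-fold that with shRNA 1 (1.11 ± 0.30, edgeR adjusted p = 0.0195). That call was lost without shRNA 1 replicate 2 (0.94, adjusted p = 0.058) or replicate 3 (0.95, adjusted p = 0.0766), the lower libraries of that group.

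CLEC12B, a close relative of CLEC12A with an inhibitory motif, held 6.54, 4.85 and 5.07 CPM with shRNA 2, 3.02, 1.41 and 2.38 CPM with shRNA 1, and 0.542, 0.173 and 0.421 CPM in control. It lay at a lower level than CLEC12A per length in every library, and its groups did not overlap either. It rose 14.4-fold with shRNA 2 (3.85 ± 0.40, edgeR adjusted p = 1.4e-05) and 5.94-fold with shRNA 1 (2.57 ± 0.39, adjusted p = 0.000458). The shRNA 2 libraries were 2.42-fold above those of shRNA 1 (1.28 ± 0.34, edgeR adjusted p = 0.0161). In each group, replicate 1 held the highest level of CLEC7A, CLEC12A and CLEC12B.

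CLEC4A (DCIR), an inhibitory receptor of dendritic cells and monocytes, moved least among the called genes. Its libraries held 1.20, 1.22 and 1.00 CPM with shRNA 2, 0.437, 0.857 and 0.730 CPM with shRNA 1, and 0.303, 0.583 and 0.541 CPM in control. The shRNA 2 libraries were above all others, while those of shRNA 1 and control overlapped. It rose 2.39-fold with shRNA 2 (1.26 ± 0.32, edgeR adjusted p = 0.0068). With shRNA 1 the value was 0.51 ± 0.33 (adjusted p = 0.244), and shRNA 2 against shRNA 1 gave 0.75 ± 0.32 (adjusted p = 0.0981), so neither passed.

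CLEC10A (MGL), a receptor of terminal galactose and N-acetylgalactosamine on macrophages and dendritic cells that is encoded on chromosome 17, rose with both shRNAs. It held 2.97, 1.83 and 2.00 CPM with shRNA 2 (2.27 ± 0.614, SD, n = 3), 1.41, 1.23 and 0.898 CPM with shRNA 1 (1.18 ± 0.26), and 0.175, 0.268 and 0.195 CPM in control (0.213 ± 0.0487). No groups overlapped. The rise was 10.5-fold with shRNA 2 (3.39 ± 0.31, edgeR adjusted p = 5.41e-06) and 5.49-fold with shRNA 1 (2.46 ± 0.31, adjusted p = 0.000141). The excess of shRNA 2 over shRNA 1 was 1.91-fold (0.93 ± 0.27, edgeR adjusted p = 0.0219). It did not pass without shRNA 2 replicate 1, the highest library (0.70, adjusted p = 0.0827).

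CLEC2B (AICL), a myeloid surface protein that is the ligand of the natural killer cell receptor encoded by KLRF1, differed between the shRNAs. It held 10.2, 9.61 and 10.9 CPM with shRNA 2 (10.2 ± 0.653, SD, n = 3), 0.675, 0.922 and 1.03 CPM with shRNA 1 (0.875 ± 0.182), and 0.876, 0.646 and 0.541 CPM in control (0.688 ± 0.172). The shRNA 2 libraries stood far above the rest, and those of shRNA 1 and control overlapped. CLEC2B rose 14.9-fold with shRNA 2 (3.89 ± 0.23, edgeR adjusted p = 2.13e-07) and gave 0.35 ± 0.23 with shRNA 1 (adjusted p = 0.254). The difference between the shRNAs was 11.6-fold (3.54 ± 0.23, edgeR adjusted p = 2.76e-06).

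**Figure D2:**
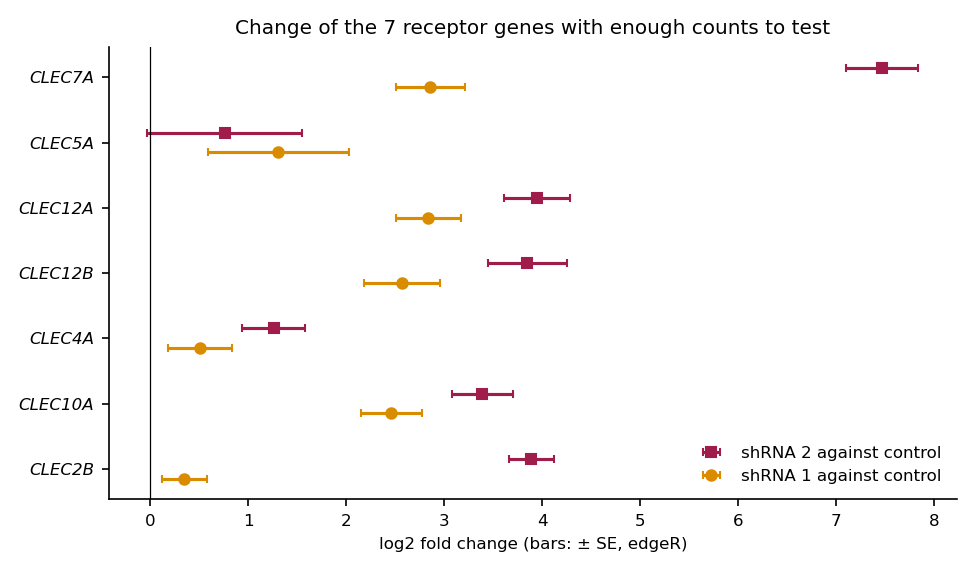
Log2 fold change against control (horizontal axis) of the 7 receptor genes that could be tested, with squares for shRNA 2 and circles for shRNA 1; bars are ± 1 SE from edgeR. CLEC7A (7.47 with shRNA 2, 2.86 with shRNA 1) and CLEC2B (3.89 and 0.35) show the widest gaps between the shRNAs.

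Levels of different genes were set side by side per kilobase of the transcript matched to the row used, in CPM per kilobase, and their order holds for these rows. In the shRNA 2 libraries CLEC12A (14 ± 1.34, SD, n = 3) and CLEC7A (10.7 ± 2.30) led, with overlapping libraries. CLEC2B followed at 6.02 ± 0.384, apart from its neighbours in the order. CLEC12B (1.81 ± 0.304) and CLEC10A (1.57 ± 0.425) overlapped, and CLEC4A (0.891 ± 0.0951) and CLEC4E (0.143 ± 0.0724) each lay below without overlap. CLEC5A, CLEC6A and CLEC4D were lowest and overlapped.

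With shRNA 1, CLEC12A alone stood apart at 6.47 ± 2.80 CPM per kilobase. CLEC10A, CLEC12B, CLEC4A, CLEC2B and CLEC7A followed with means of 0.441 to 0.818, and each overlapped the next. In control, CLEC12A also led at 0.904 ± 0.325 and did not overlap CLEC2B at 0.405 ± 0.101, while CLEC7A was sixth of the 10 at 0.0603 ± 0.0293. The sum over all 10 genes was 40.1, 32.4 and 33.2 CPM per kilobase with shRNA 2, 13.1, 7.57 and 8.15 with shRNA 1, and 2.44, 1.85 and 1.85 in control. Other rows moved the order. Over its 7 rows the mean of CLEC7A ran from 10.7 to 61.9 with shRNA 2, from 0.441 to 2.48 with shRNA 1 and from 0.0603 to 0.325 in control, and that of CLEC12A from 13 to 30.5, 6.19 to 14.1 and 0.805 to 1.97 in the same groups. CLEC4A ran from 0.773 to 1.70 with shRNA 2, CLEC10A from 1.26 to 1.57 and CLEC12B from 1.81 to 3.25. The places of CLEC7A, CLEC12A, CLEC4A, CLEC10A and CLEC12B therefore depend on the row.

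**Figure D3:**
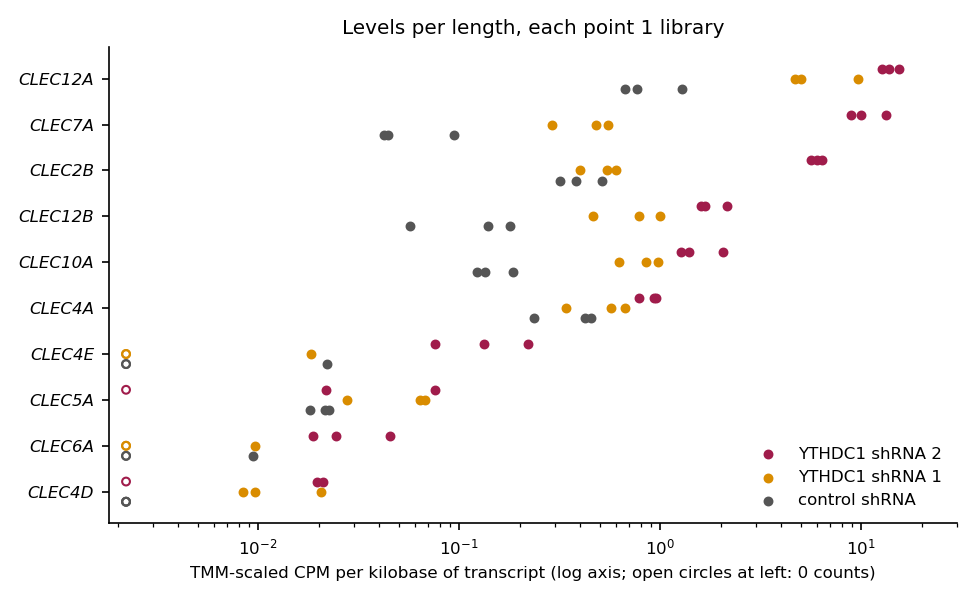
Level per length of the 10 receptor genes in each library (horizontal log axis, CPM per kilobase of transcript), ordered by their mean with shRNA 2; open circles at the left edge stand for 0 counts. CLEC7A held 8.93 to 13.3 with shRNA 2, against 0.0423 to 0.0941 in control.

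Members were also compared by the shape of their pattern over the 9 libraries, as the root mean square difference of centred log2 CPM, in log2 units. Of 21 pairs of tested members, CLEC12A and CLEC12B were closest at 0.304, followed by CLEC10A and CLEC12A at 0.519. CLEC5A and CLEC7A were farthest apart at 3.26. Among all other tested genes, the nearest to CLEC12A were BCL2A1 (0.241), CD36 (0.254) and CECR1 (0.264). HMOX1 (0.446), CCL4 (0.460) and SLC26A11 (0.559) were nearest to CLEC7A, and NR4A3 (0.259), LOC100130705 (0.339) and PDE4B (0.339) to CLEC2B. These are descriptions over libraries that share their groups.

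Of the members, 8 are encoded on chromosome 12, in a region dense with lectin-like receptor genes. In the RefSeq order of protein-coding genes from KLRF1 to GABARAPL1, the run CLEC12A, CLEC1B, CLEC12B, CLEC9A, CLEC1A, CLEC7A, OLR1, TMEM52B and GABARAPL1 rose throughout with shRNA 2. With shRNA 1, all of these but CLEC9A rose (0.46 ± 0.78, edgeR adjusted p = 0.677). Both ends of that stretch were chosen by hand, so the run is a description. Among all tested genes, 27.5% rose with shRNA 2 and 20.4% with shRNA 1. Outside the stretch, the lectin-like genes KLRK1 (0.34 ± 0.36, edgeR adjusted p = 0.448) and KLRC2 (-0.72 ± 0.68, adjusted p = 0.392) did not pass with shRNA 2. Others such as CD209 and KLRG1 (1.23 ± 0.19, edgeR adjusted p = 0.000228) rose. KLRK1, KLRC2 and KLRG1 are named after their values were seen. OLR1, next to CLEC7A, encodes a scavenger receptor of oxidized lipoprotein. It held 13.3, 7.56 and 5.54 CPM with shRNA 2, 3.10, 1.02 and 0.935 CPM with shRNA 1, and 0.0478, 0.0473 and 0.015 CPM in control. CLEC1B, a receptor of platelets that lies between CLEC12A and CLEC12B, held 2.37, 1.76 and 1.98 CPM with shRNA 2, 0.715, 0.534 and 0.804 CPM with shRNA 1, and 0.159, 0.0945 and 0.0901 CPM in control. Its groups did not overlap, as with its neighbours on either side.

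In that region CLEC2B is set apart from CLEC12A by CLEC2A, which had too few counts to test, and KLRF2, which did not pass (2.22 ± 1.19, edgeR adjusted p = 0.147 with shRNA 2) but did without shRNA 2 replicate 1 (2.64 ± 0.99, adjusted p = 0.0419). KLRF1, the receptor of the CLEC2B product, was also below the filter, at a mean of 0.0195 CPM with shRNA 2, 0.0129 with shRNA 1 and 0.0105 in control. In the other group of genes, from C3AR1 to CLEC4E, CLEC4A and C3AR1, a complement receptor, rose with shRNA 2. FAM90A1 fell there (-1.30 ± 0.26, edgeR adjusted p = 0.00133), and NECAP1 did not pass (0.08 ± 0.11, adjusted p = 0.579). In the RefSeq annotation CLEC12A overlaps CLEC1B and the antisense gene CLEC12A-AS1, and CLEC7A overlaps a noncoding gene; whether the counting used strand is not given, so reads of overlapping genes cannot be told apart.

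**Figure D4:**
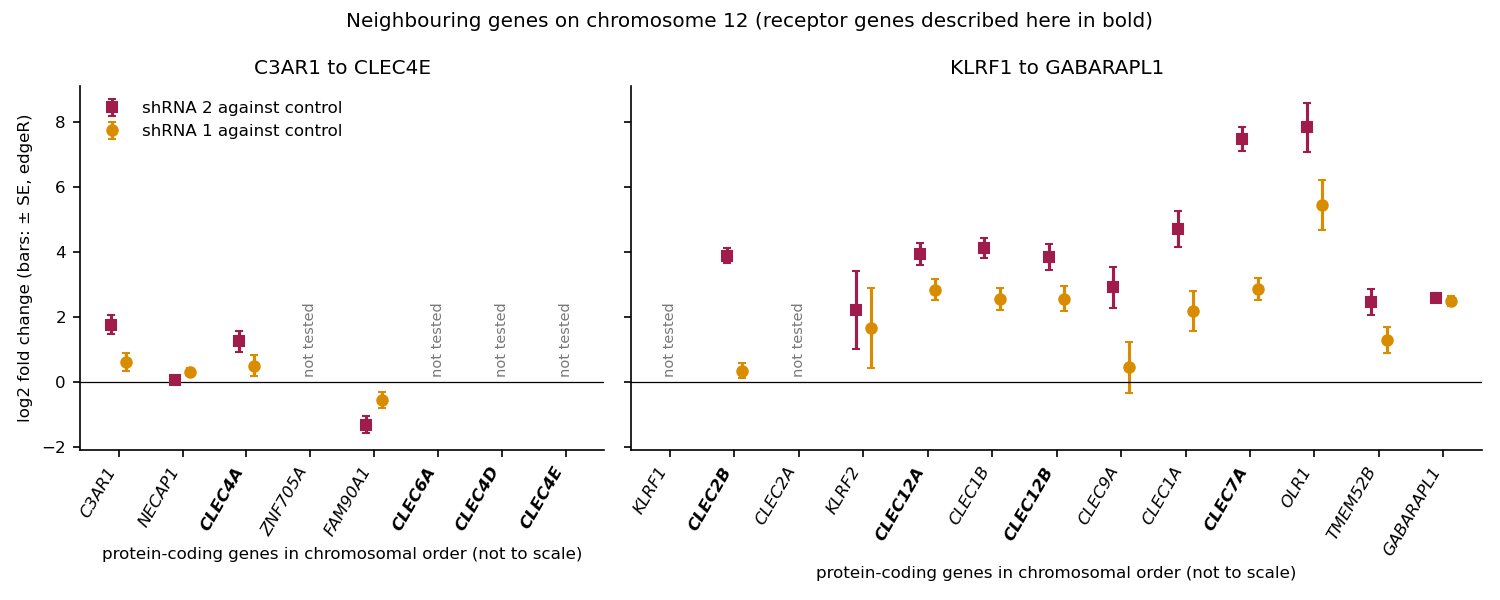
Log2 fold change against control (vertical axis, ± 1 SE from edgeR) of protein-coding genes in their order on chromosome 12, with squares for shRNA 2 and circles for shRNA 1; the receptor genes described here are in bold, and spacing is not to scale. From CLEC12A to GABARAPL1, an end chosen by hand, every gene rose with shRNA 2, with OLR1 (7.83) and CLEC7A (7.47) highest.

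Promoters are shown for CLEC12A and CLEC12B, the closest pair of members, and for CLEC4E, which was detected mainly with shRNA 2. Each is 300 bases around a RefSeq gene start, written 5′ to 3′ on the gene's strand, from RefSeq. Capitals mark matches on either strand to AGGAAG, a core bound by ETS factors such as PU.1, to TTGCNNAA, a C/EBP motif, or to TATAAA, the TATA box.
CLEC12A, GRCh38.p14, chr12:9971159-9971458, plus strand: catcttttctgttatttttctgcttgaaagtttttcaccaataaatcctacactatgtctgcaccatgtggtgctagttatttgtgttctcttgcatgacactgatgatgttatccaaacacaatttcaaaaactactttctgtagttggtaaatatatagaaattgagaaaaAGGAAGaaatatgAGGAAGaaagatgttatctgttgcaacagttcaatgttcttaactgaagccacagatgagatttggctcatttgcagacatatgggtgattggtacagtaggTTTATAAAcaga
CLEC12B, GRCh38.p14, chr12:10010377-10010676, plus strand: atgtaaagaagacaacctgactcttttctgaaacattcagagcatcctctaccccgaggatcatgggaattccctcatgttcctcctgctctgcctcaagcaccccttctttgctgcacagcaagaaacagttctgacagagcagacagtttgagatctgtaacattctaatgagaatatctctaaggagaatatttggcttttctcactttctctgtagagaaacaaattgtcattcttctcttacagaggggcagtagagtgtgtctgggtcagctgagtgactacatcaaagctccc
CLEC4E, GRCh38.p14, chr12:8540856-8541155, minus strand: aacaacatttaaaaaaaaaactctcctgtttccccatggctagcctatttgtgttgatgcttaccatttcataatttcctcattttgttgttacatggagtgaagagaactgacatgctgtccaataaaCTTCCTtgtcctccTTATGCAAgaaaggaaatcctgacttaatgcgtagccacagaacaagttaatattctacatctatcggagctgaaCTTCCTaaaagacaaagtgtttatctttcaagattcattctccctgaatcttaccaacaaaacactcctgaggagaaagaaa

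Promoters of 5 members were in the RefSeq table: CLEC4E, CLEC5A, CLEC6A, CLEC12A and CLEC12B. AGGAAG occurred 2 times in that of CLEC12A, 2 times in that of CLEC4E, 4 times in that of CLEC5A and not in those of CLEC12B and CLEC6A; 33.6% of 35116 promoters of the same length held it on either strand. TTGCNNAA occurred in that of CLEC4E only among the 5, and in 10.5% of all promoters. TATAAA occurred in that of CLEC12A only, as 2 overlapping matches on opposite strands, and in 11.5% of all. The longer PU.1 motif GAGGAAGT, which contains AGGAAG, the AP-1 motif TGANTCA and the E-box CACGTG were in 0 of the 5, and in 2.59%, 7.71% and 7.26% of all. The CLEC12B window held none of the motifs searched, so it could share none of them with CLEC12A or any other member.

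GGACT, a sequence that is often methylated to m6A, was counted on the sense strand of the matched GENCODE transcripts. The tested genes with a matched transcript (94.4% of them) had a median of 0.922 per kilobase, with quartiles of 0.488 and 1.43. The members ran from 0 in CLEC6A and 0.268 in CLEC7A to 1.85 in CLEC4E and 2.08 in CLEC10A. CLEC12A had 1.29 and CLEC12B 0.99 per kilobase. The value of CLEC7A is for its longest row, a noncoding transcript of 3725 bases with 1 match.

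Of 26 genes for adapters, kinases, phosphatases and other signalling partners of these receptors, all were tested; 16 rose and 1 fell with shRNA 2 (median log2 fold change 0.33, against -0.02 over all genes). With shRNA 1, 13 rose and 0 fell (median 0.28, against 0.02). The shares of all tested genes were 27.5% higher and 27.4% lower with shRNA 2, and 20.4% higher and 19.0% lower with shRNA 1. Without shRNA 2 replicate 1, 13 rose and 1 fell with shRNA 2, and 10 rose and 1 fell with shRNA 1. The partner chains led the list. FCER1G, the chain used by the products of CLEC4E, CLEC4D and CLEC6A, held 11.8, 13.5 and 16.3 CPM with shRNA 2, 3.93, 3.11 and 2.68 CPM with shRNA 1, and 0.797, 0.709 and 0.751 CPM in control. TYROBP (DAP12), the chain of CLEC5A, held 54.6, 43.5 and 63.2 CPM with shRNA 2, 28.5, 28.6 and 21.2 CPM with shRNA 1, and 4.09, 4.93 and 4.79 CPM in control. HCST (DAP10), a related chain, rose as well. The log2 fold changes of FCER1G, TYROBP and HCST were 4.20, 3.54 and 1.79 with shRNA 2, and 2.10, 2.50 and 0.84 with shRNA 1. The chains thus rose in both groups while CLEC4D, CLEC6A and CLEC5A held at most 13 counts in any library. CLEC4E had 15, 15 and 8 counts with shRNA 2, 2, 0 and 0 with shRNA 1, and 0, 3 and 0 in control.

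Of the kinases, SRC, of a family that phosphorylates receptor tails and adapters, rose by 2.27 with shRNA 2 and by 1.16 with shRNA 1. REL, a subunit of NF-kB, rose by 1.66 and 0.74. SYK, CARD9, FYN and PTPN6 are named after their values were seen. SYK, the kinase that binds the tyrosine motifs, rose by 0.38 with shRNA 2 and by 0.25 with shRNA 1; the shRNA 1 call was lost without shRNA 2 replicate 1 (0.23, edgeR adjusted p = 0.0861). CARD9, which links SYK to NF-kB, did not pass with either (0.02 ± 0.44, edgeR adjusted p = 0.972, and -1.03 ± 0.46, adjusted p = 0.0987). FYN, a kinase of the SRC family, was the fall with shRNA 2 (-0.95, edgeR adjusted p = 0.0181). With shRNA 1 FYN did not pass (-0.64, edgeR adjusted p = 0.105), but it did without shRNA 2 replicate 1 (-0.66, adjusted p = 0.0247). PTPN6, the phosphatase SHP-1 recruited by inhibitory motifs, did not pass either (0.09 and 0.31, adjusted p = 0.62 and 0.105).

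**Figure D5:**
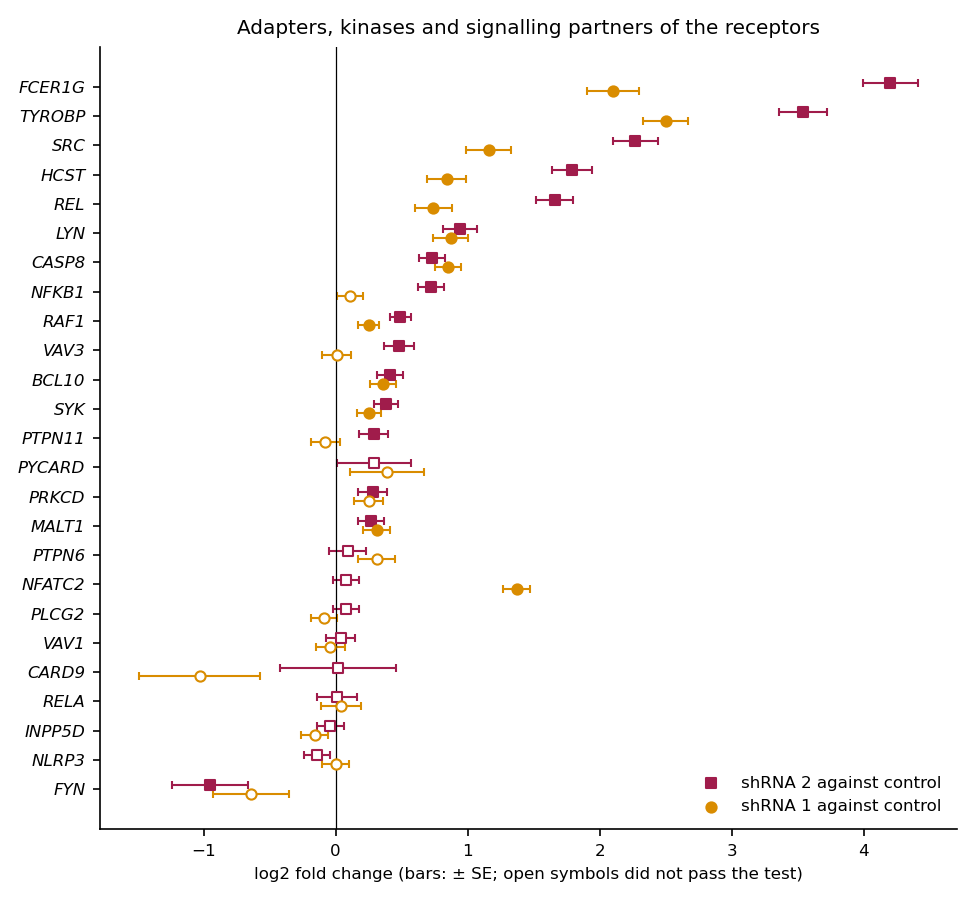
Log2 fold change against control (horizontal axis, ± 1 SE from edgeR) of signalling partners of the receptors, with squares for shRNA 2 and circles for shRNA 1; open symbols did not pass the test. FCER1G (4.20 and 2.10) and TYROBP (3.54 and 2.50) had the largest rises of the list with both shRNAs.

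Of 12 cytokine and related genes that these receptors can induce, 8 were tested; 6 rose with shRNA 2 (median 4.12) and 6 with shRNA 1 (median 2.45), and 0 fell, where 27.5% and 20.4% of all tested genes rose. The 6 with shRNA 2 were CCL4, CCL3, IL1B, CXCL8, CXCL2 and PTGS2. IL1B, which encodes interleukin 1 beta, held 53.7, 48.3 and 55.9 CPM with shRNA 2, 7.58, 6.15 and 5.18 CPM with shRNA 1, and 0.924, 0.756 and 0.736 CPM in control. CCL4, a chemokine, held 5.59, 5.73 and 5.05 CPM with shRNA 2, 0.218, 0.0971 and 0.0748 CPM with shRNA 1, and 0.0159, 0 and 0 CPM in control. TNF, the cytokine tumor necrosis factor, held 0, 1240 and 1170 CPM with shRNA 2, 668, 819 and 552 CPM with shRNA 1, and 340, 377 and 370 CPM in control. The 0 was in shRNA 2 replicate 1. TNF did not pass over all libraries (with shRNA 2, 1.15 ± 1.91, edgeR adjusted p = 0.646; with shRNA 1, 0.91 ± 1.90, adjusted p = 0.746). Without that library it passed with both (1.71 ± 0.16 and 0.89 ± 0.15, edgeR adjusted p = 2.6e-06 and 0.000463), so that 7 of the 8 rose with each shRNA. TNF is named after its values were seen. IL6, IL10, IL12B and CCL2 were below the filter.

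Of 37 other lectin-like receptors of leukocytes, 26 were tested. There, 17 rose and 3 fell with shRNA 2 (median 1.64), and 8 rose and 2 fell with shRNA 1 (median 0.51). Over all tested genes, 27.5% rose and 27.4% fell with shRNA 2 (median -0.02), and 20.4% rose and 19.0% fell with shRNA 1 (median 0.02). CD209 (DC-SIGN), a mannose receptor of macrophages and dendritic cells, held 164, 144 and 164 CPM with shRNA 2, 14.2, 8.80 and 10.3 CPM with shRNA 1, and 7.01, 4.14 and 4.76 CPM in control. OLR1, CLEC1A, CLEC4G, CLEC17A and CLEC1B rose by 7.83, 4.70, 4.39, 4.26 and 4.12 with shRNA 2. Of these, CLEC4G did not pass with shRNA 1 (0.77 ± 0.42, edgeR adjusted p = 0.167). The falls with shRNA 2 were MRC2 (-1.68), KLRB1 (-1.03) and CD302 (-0.39), named because they were few. Without shRNA 2 replicate 1, KLRB1 did not pass (-0.89, edgeR adjusted p = 0.0811), and of 27 tested 18 rose and 2 fell with shRNA 2.

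Of 12 myeloid transcription factors, 10 rose and 0 fell with shRNA 2 (median 1.45), and 9 rose and 1 fell with shRNA 1 (median 0.70). For comparison, 27.5% of all tested genes rose and 27.4% fell with shRNA 2, and 20.4% rose and 19.0% fell with shRNA 1. TFEC and MITF, related factors of macrophages and osteoclasts, rose by 2.43 and 2.08 with shRNA 2 and by 1.96 and 0.45 with shRNA 1. CEBPB, named as the fall with shRNA 1, changed by -0.97 there (edgeR adjusted p = 0.000938). EGR2, CEBPD and CEBPE rose with both shRNAs. Without shRNA 2 replicate 1, 10 rose and 1 fell with shRNA 2, the fall being CEBPA (-0.47, edgeR adjusted p = 0.0263). Over the 4 lists, 0 genes were called in opposite directions by the shRNAs.

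The T and NK cell list of 8 genes summed to 23.1 to 33.6 CPM with shRNA 2, 13.3 to 25.5 with shRNA 1 and 13 to 14.6 in control; 2 of the 8 could be tested, and 1 rose with shRNA 2. NKG7 carried most of that sum, and CD3D, CD3E and CD3G each averaged under the level of 3 counts in every group. The 6 dendritic cell markers summed to 0.822 to 1.41 CPM with shRNA 2, 0.299 to 0.556 with shRNA 1 and 0.180 to 0.236 in control, and CD1C had 0 counts in control. Only 3 of the 6, CD1C, CLEC9A and FCER1A, had enough counts to test. All 3 rose with shRNA 2 (6.57, 2.91 and 1.14) and only CD1C with shRNA 1 (4.46). Of all tested genes, 27.5% and 20.4% rose. The counts of these markers were low, so the calls are a description. The 5 megakaryocyte and platelet markers, which include CLEC1B, summed to 1.93 to 2.94, 0.841 to 0.993 and 0.630 to 0.669 CPM in the same order, with PF4 at 0 in all libraries. CLEC1B carried the rise of that sum, with means of 2.04, 0.684 and 0.115 CPM. ITGA2B fell with shRNA 1 (-1.69, edgeR adjusted p = 0.0101) and did not pass with shRNA 2 (-0.94, adjusted p = 0.0808). GP9 passed with neither (-0.36 with shRNA 2, -0.46 with shRNA 1). The 5 stromal and epithelial markers summed to 170 to 190, 119 to 173 and 23.0 to 27.6 CPM; PECAM1, which monocytes also express, carried that sum, and COL1A1, COL1A2 and EPCAM were near 0. The 5 B cell markers summed to 23.1 to 27.2, 12 to 14.3 and 36.5 to 41.2 CPM. PAX5 carried that sum and fell (-0.65 with shRNA 2, -1.60 with shRNA 1). The 5 erythroid markers summed to 0.695 to 0.840, 0.340 to 0.580 and 0.287 to 0.631 CPM. Their part in the results was not tested here either.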

How the data were processed

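Polyadenylated RNA was sequenced from 9 MOLM13 libraries. The values are raw counts per RefSeq transcript, deposited by the authors in 1 table with a column per library. Per the submitters' processing notes, STAR and DESeq were used on hg19; their roles and versions, the counting program and its use of strand were not given in the sources used here. Per the labels' protocols, a stranded kit that selects messenger RNA was used.

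Rows of a gene share reads, so the row with the highest total was kept per symbol. Of 80 rows whose symbol had become a date, 78 were restored through their identifiers and 2 left out. Tests used edgeR 4.0.16 (R 4.3.3): filterByExpr, TMM, robust quasi-likelihood fit, 1 mean per group, all 9 libraries in 1 fit, two-sided F-tests, Benjamini-Hochberg adjustment over 16746 genes, threshold 0.05. SE come from that fit. DESeq2 1.42.0 was an alternative. The steps were tested on simulated counts. Counting intervals are exact (95%) and, like the floor of 3 counts, cover counting error only, since reads carried no molecular identifiers. Transcript lengths come from GENCODE 29 (GRCh38) by RefSeq identifier, and gene order from RefSeq GRCh38.p14; neither was used for coordinates of the counts. Transcript lengths can differ from those used in counting.

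The members, lists and tests were chosen with earlier results of these data known. All 10 members and YTHDC1 are named; of each list, up to 6 called genes with the largest change with shRNA 2, except items that are not reported here. Likeness was ranked for the 3 members with the highest mean CPM. No pair of replicates matched within sampling noise.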

Additional observations from a re-analysis of the deposited data

How the results depend on the processing

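Alternatives were other size factors, no count filter, DESeq2, each library left out, the compared groups alone, a replicate block, library sizes without ribosomal RNA precursor and mitochondrial rows, and the row with the second highest total. Over these, 330 of 334 member values kept direction and call. CLEC10A and CLEC12A lost their calls for shRNA 2 against shRNA 1 as given above, and CLEC5A turned to -0.62 (edgeR adjusted p = 0.602) for shRNA 2 against control without shRNA 2 replicate 3, where the cause was not tested; with 1 library left out it ran from -0.62 to 1.18. Calls among the members numbered 4 for shRNA 1 against control in every alternative, 6 or 7 for shRNA 2 against control and 5 or 6 for shRNA 2 against shRNA 1. The added call was CLEC4E, which then passed the filter or was tested without it. With 1 library left out, YTHDC1 ran from -2.33 to -1.23 for shRNA 2 against control and from -2.17 to -1.05 for shRNA 2 against shRNA 1. It passed only without shRNA 2 replicate 1, which held 0 counts of it. Whether replicate numbers pair the libraries stayed unsettled. Deviations of libraries with the same number correlated at -0.09 to 0.57, highest for replicate 1 of control and shRNA 1. Those with different numbers ran from -0.52 to 0.26, and not every library correlated best with its own number. For shRNA 1 against control, the block took the SE of CLEC12A from 0.33 to 0.19 and that of CLEC2B from 0.23 to 0.25. The replicate block changed no call of a member: CLEC12A, for example, rose by 2.82 with shRNA 1 and by 4.01 with shRNA 2 in the blocked fit. Genes called with the block numbered 6573, 9161 and 5311 for shRNA 1 and shRNA 2 against control and shRNA 2 against shRNA 1, against 6593, 9189 and 5364 without it. Depth limits CLEC4D, CLEC6A and CLEC5A, which had at most 13 counts in a library.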
